A study of Sus scrofa with 6 samples.

Results

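Enzymes that remove superoxide and peroxides, and genes of the thioredoxin system, which recharges most peroxiredoxins, were followed in the loin muscle (longissimus dorsi) of Wei and Yorkshire pigs. The genes were chosen by symbol: SOD1, SOD2, CAT, GPX1, GPX3, GPX4, PRDX3, PRDX5, TXNIP and TXNRD1. Of these 10 symbols, 8 were found in the gene name column of a table of 25322 gene rows, each in 1 row, and all 8 passed the filter on low counts. GPX1 was not analysed here. GPX4 had no symbol in that column, and its row, found by gene ID, is given apart from the 8.

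RNA sequencing was done on 3 libraries labelled Wei and 3 labelled Yorkshire. The Wei pigs had commercial feed and water without restriction and were slaughtered at 90 kg, and the Yorkshire pigs are described as kept in a similar way. No treatment is named, and the weight of the Yorkshire pigs at slaughter is not stated. The sample titles call the Wei libraries YH and the Yorkshire libraries LWH, and the labels do not explain these codes. The labels do not say whether the 3 libraries of a breed are 3 animals, so p-values measure only the spread between these libraries, which may be in part technical.

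Superoxide, a by-product of respiration, is converted to hydrogen peroxide by superoxide dismutases, SOD1 mainly in the cytosol and SOD2 in the mitochondrial matrix. Catalase, glutathione peroxidases and peroxiredoxins then reduce the peroxide, and thioredoxin, kept reduced by thioredoxin reductase, recharges most peroxiredoxins. TXNIP binds reduced thioredoxin and inhibits it, and as an arrestin-like protein it also lowers glucose uptake. In muscle the mitochondrial enzymes of this set are known for accompanying oxidative metabolism.

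Total counts ranged from 15285197 to 27096747 a library. The muscle markers ACTA1, CKM, DES, TTN and the slow and fast fibre genes MYH7, MYH2 and TNNT1 were all detected, and 0 of these 7 passed edgeR's adjusted threshold between breeds or had an unadjusted p below 0.05. The log2 fold changes, Wei over Yorkshire, were 0.48 for MYH7, 0.20 for TNNT1 and -0.47 for MYH2 (edgeR unadjusted p = 0.0752, 0.342 and 0.0515). In Yorkshire replicate 3 the summed level of the macrophage markers was 172 CPM (counts scaled to library size after TMM normalization), against 41.0 to 52.4 CPM in the other 5 libraries. That of the lymphocyte markers was 26.2 CPM there and between 3.03 and 6.08 CPM elsewhere. Y-linked genes summed to 6901 counts in Wei replicate 2, while no other library exceeded 14, so the Wei libraries did not all come from 1 animal. The call of TXNIP is therefore also given without each of these libraries, as is that of SOD2.

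TXNIP and SOD2 were higher in Wei muscle, and the 6 other members did not pass the test. TXNIP, the inhibitor of thioredoxin, stood 4.23 times as high in Wei, and SOD2, the mitochondrial superoxide dismutase, 1.66 times as high. With edgeR's quasi-likelihood test and Benjamini-Hochberg adjustment over all 13209 tested genes, 2 of 8 members were higher and 0 lower at an adjusted p under 0.05. Over all tested genes 5.08% were called, 2.73% higher and 2.35% lower. The same count, 2 higher and 0 lower, came from DESeq2, which called 9.78% of all genes, and from limma voom, which called 4.88%. The median log2 fold change of the 8 members was 0.11, beside -0.023 over all tested genes, and 5 of the 8 changes were positive. The Wei and Yorkshire libraries did not overlap for 3 members, TXNIP, SOD2 and GPX3, a pattern shared by 29.6% of all tested genes.

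**Figure D1:**
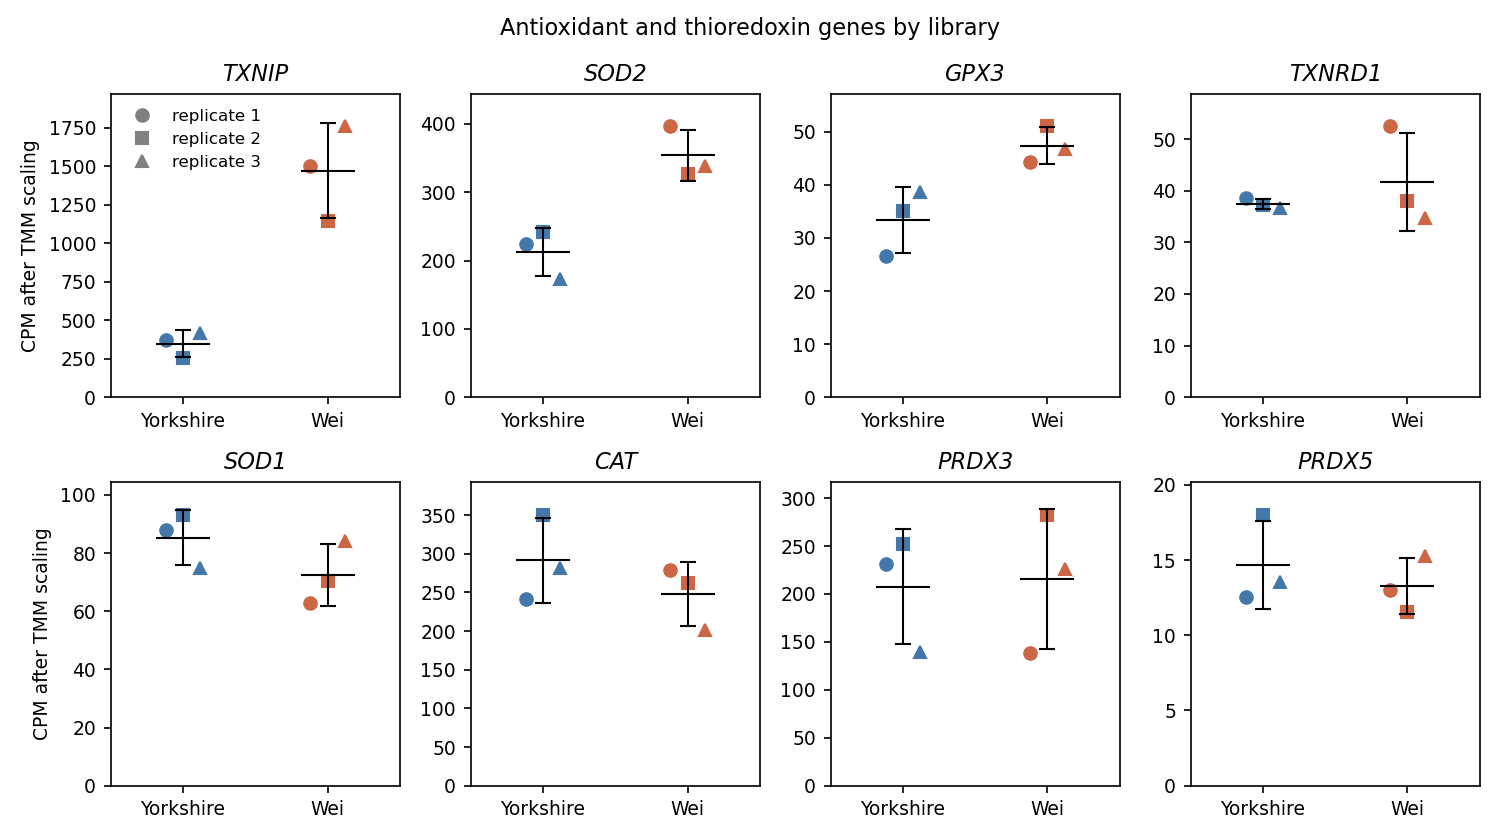
Level of each of the 8 members in every library, in CPM after TMM scaling on a linear axis from 0; marker shapes give the replicate, the horizontal line is the breed mean and the bar 1 SD (n = 3). In TXNIP, SOD2 and GPX3 all Wei points lie above all Yorkshire points, and in the other 5 genes the breeds overlap.

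Levels of different genes can be compared per length, in the deposited FPKM values (fragments per kilobase of transcript, scaled to library size). In Yorkshire muscle CAT, which encodes catalase, stood highest at 119 ± 25.6 FPKM (SD, n = 3 for this and the values that follow), with TXNIP at 116 ± 32.1, SOD1 at 97.7 ± 8.67 and PRDX3 at 86.3 ± 22.3. Each of these lay within the spread of its neighbour. SOD2 followed at 43.9 ± 6.01 FPKM and GPX3 at 21.5 ± 5.20, each further from its neighbours than their SDs. PRDX5 at 11.2 ± 2.42 and TXNRD1 at 11.0 ± 0.39 did not differ beyond their spread.

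In Wei muscle TXNIP came first at 483 ± 98.3 FPKM, well above CAT at 101 ± 25.8. PRDX3 at 87.8 ± 25.7, SOD1 at 81.5 ± 4.62 and SOD2 at 72.8 ± 15.0 lay within each other's spread. GPX3 stood at 29.7 ± 2.58, TXNRD1 at 12.3 ± 4.09 and PRDX5 at 9.93 ± 1.26. Among all gene rows of a library, TXNIP ranked between 349 and 630 by FPKM in the Yorkshire libraries and between 102 and 159 in the Wei libraries.

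TXNIP (ENSSSCG00000006681, chromosome 4, 108991306 to 108995645 in Sscrofa10.2) had 371, 252 and 420 CPM in Yorkshire replicates 1 to 3 and 1504, 1147 and 1761 CPM in Wei replicates 1 to 3. The lowest Wei library stood above the highest Yorkshire library, and the spread within each breed was moderate, with a coefficient of variation of 24.9% in Yorkshire and 21.0% in Wei. Its log2 fold change, Wei over Yorkshire, was 2.08 ± 0.24 (SE; edgeR adjusted p = 0.00783), with a 95% interval of the fold from 2.90 to 6.16. It ranked 26 by p among all tested genes, and 1.05% of them had a larger absolute log2 fold change. As a share of all counts of a library, TXNIP took between 0.0255% and 0.0449% in Yorkshire and between 0.112% and 0.166% in Wei. Without Wei replicate 2, the library with Y chromosome counts, the log2 fold change was 2.24 (adjusted p = 0.00835), and without Yorkshire replicate 3 it was 2.24 (adjusted p = 0.0238).

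The partner that TXNIP inhibits, thioredoxin, was not called. TXN, the cytosolic thioredoxin gene, had 24.5, 26.3 and 32.0 CPM in Yorkshire and 22.7, 18.8 and 28.4 CPM in Wei, a log2 fold change of -0.25 with a 95% interval from -0.66 to 0.17 (edgeR adjusted p = 0.45). The breeds overlapped. TXNIP therefore had 15.1, 9.57 and 13.1 counts for each TXN count in the Yorkshire libraries and 66.4, 61.1 and 62.1 in the Wei libraries. By FPKM, which takes gene length into account, TXNIP stood at 116 and TXN at 75.9 in Yorkshire, and at 483 and 62.4 in Wei. The ratio of counts needs no scaling between libraries but is not corrected for gene length. It averaged 12.6 ± 2.81 in Yorkshire and 63.2 ± 2.81 in Wei (SD, n = 3, two-sided exact permutation test p = 0.1, the smallest that 3 against 3 libraries allow). The pairs of genes taken for ratios were chosen after their values were seen.

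TXNRD1, the cytosolic thioredoxin reductase and a selenoprotein (chromosome 5, 83657864 to 83701655), had 38.6, 37.2 and 36.6 CPM in Yorkshire and 52.5, 38.0 and 34.6 CPM in Wei. The Yorkshire libraries lay close together, with a coefficient of variation of 2.71%, while Wei replicate 1 stood above the other Wei libraries. Its log2 fold change was 0.16, with a 95% interval from -0.23 to 0.54 (edgeR adjusted p = 0.612), and -0.037 without Wei replicate 1. The interval reaches a fold of 1.45, so a modest difference cannot be told from none in these libraries.

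SOD2 (chromosome 1, 9475309 to 9487684) had 224, 241 and 173 CPM in Yorkshire and 397, 327 and 339 CPM in Wei. Yorkshire replicate 3 was the lowest of the 6 and Wei replicate 1 the highest, and the breeds did not overlap. The log2 fold change was 0.73 ± 0.16 (SE; edgeR adjusted p = 0.0412), with a 95% interval of the fold from 1.29 to 2.15. SOD2 ranked 504 by p, and 14.8% of all tested genes had a larger absolute change. The call was lost without any 1 of the 6 libraries: the adjusted p was then between 0.0657 (without Wei replicate 2) and 0.109 (without Yorkshire replicate 3), and the log2 fold change between 0.61 and 0.83. It was also lost with library size alone as the scaling (adjusted p = 0.0624).

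SOD1, the cytosolic copper and zinc enzyme (chromosome 13, 205620986 to 205629933), had 87.8, 93.2 and 74.7 CPM in Yorkshire and 62.9, 70.5 and 84.0 CPM in Wei. The breeds overlapped, and the log2 fold change was -0.23 with a 95% interval from -0.58 to 0.11 (edgeR adjusted p = 0.383). Within a library there were 2.56, 2.59 and 2.32 SOD2 counts for each SOD1 count in Yorkshire and 6.31, 4.64 and 4.03 in Wei. The mean of this ratio was 2.49 ± 0.15 in Yorkshire and 4.99 ± 1.18 in Wei (SD, n = 3, two-sided exact permutation test p = 0.1, the smallest possible). This ratio of counts thus did not overlap between the breeds, but it is not corrected for gene length. By FPKM the mean of SOD1 was above that of SOD2, 97.7 against 43.9 in Yorkshire. In Wei the means were 81.5 and 72.8, within their spread.

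In a list of 12 markers of mitochondrial content, 2 were called higher in Wei, SDHA and UQCRC1, subunits of respiratory complexes, beside 2.73% of all tested genes. DESeq2, which called 9.78% of all genes, called 4 of the 12 higher, and limma voom, which called 4.88%, called 3. An edgeR unadjusted p under 0.05 was seen for 7, beside 23.3% of all tested genes. The breeds did not overlap for 8, beside 29.6% of all tested genes. Of the 12 changes 11 were positive, with a median log2 fold change of 0.42, beside 47.8% positive over all tested genes, and that of TOMM20, an import receptor, was -0.34. The summed level of the list was 2118 to 2595 CPM in Yorkshire and 2968 to 3265 CPM in Wei. Set against this sum within each library, SOD2 stood at 8.65%, 9.35% and 8.19% in Yorkshire and at 12.6%, 11.0% and 10.4% in Wei. The Wei libraries were all above the Yorkshire libraries in this ratio (means 11.3% ± 1.16 and 8.73% ± 0.58, SD, n = 3, two-sided exact permutation test p = 0.1, the smallest possible). The part of mitochondrial content in the SOD2 values was not tested. Macrophages can also express SOD2, and their summed markers were 41.0 to 172 CPM in Yorkshire and 43.8 to 52.4 CPM in Wei. Of 11 such markers 8 were tested, and edgeR called 0, with 1 at an unadjusted p under 0.05, while DESeq2 called 1, lower in Wei. Their part in the SOD2 values was not tested.

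**Figure D2:**
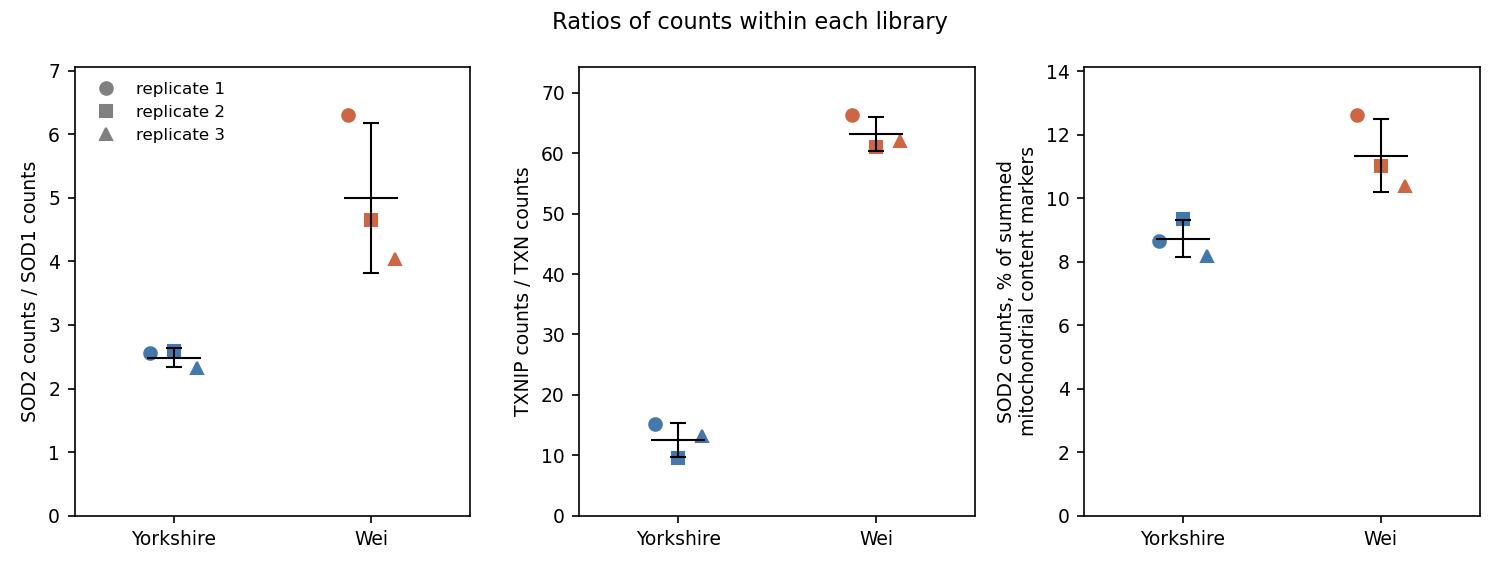
Ratios of counts within each library for SOD2 over SOD1, TXNIP over TXN and SOD2 as a percentage of the summed mitochondrial content markers, by breed, on linear axes from 0; the horizontal line is the mean and the bar 1 SD (n = 3). In all 3 panels the Wei libraries lie above the Yorkshire libraries, with means of 4.99 against 2.49, 63.2 against 12.6 and 11.3% against 8.73%. Counts are not corrected for gene length.

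The peroxide-removing members did not pass the test. GPX3, the glutathione peroxidase secreted into plasma and a selenoprotein (chromosome 16, 78282294 to 78290916), had 26.6, 35.0 and 38.7 CPM in Yorkshire and 44.3, 51.1 and 46.7 CPM in Wei. Every Wei library was above every Yorkshire library, with Yorkshire replicate 1 the lowest. The log2 fold change was 0.50 ± 0.16 (SE; edgeR adjusted p = 0.107), with a 95% interval of the fold from 1.10 to 1.83 before adjustment. It had an unadjusted p of 0.0128, and 23.3% of all tested genes had an unadjusted p under 0.05. Fat cells also express GPX3. Of 6 tested adipocyte markers 1 was called, PLIN4, which coats lipid droplets (271 CPM on average in Yorkshire and 439 in Wei), while 4 of the 6 log2 fold changes were negative and their median was -0.068. PLIN4 made up most of the summed level of the list, which was 332 to 376 CPM in Yorkshire and 499 to 529 CPM in Wei. The part of fat cells in the GPX3 values was not tested.

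GPX4, which reduces lipid peroxides in membranes, was found by gene ID (ENSSSCG00000024052, chromosome 2, 77673695 to 77675018). It had 20.9, 25.2 and 18.7 CPM in Yorkshire and 20.1, 23.3 and 20.1 CPM in Wei. The breeds overlapped, with a log2 fold change of -0.030 and a 95% interval from -0.38 to 0.32 (edgeR adjusted p = 0.928).

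CAT, the peroxisomal catalase (chromosome 2, 28860746 to 28900838), had 242, 351 and 282 CPM in Yorkshire and 279, 263 and 201 CPM in Wei. Yorkshire replicate 2 was the highest and Wei replicate 3 the lowest, and the rest were mixed. The log2 fold change was -0.24 with a 95% interval from -0.66 to 0.18 (edgeR adjusted p = 0.47). Red blood cells hold much catalase and SOD1. Of 10 red cell markers 7 had a row, 1 passed the count filter (HBB, 8.52 to 15.6 CPM), and CA1 was at 0 in every library. The summed level of the list was 8.89 to 16.1 CPM in Yorkshire and 9.40 to 16.0 CPM in Wei.

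PRDX3, the peroxiredoxin of the mitochondrial matrix (chromosome 14, 140603477 to 140615527), varied most within the breeds in relation to its mean. It had 231, 252 and 140 CPM in Yorkshire and 138, 283 and 226 CPM in Wei. Yorkshire replicate 3 and Wei replicate 1 stood at nearly the same low level, and the other 4 libraries lay above both. The coefficient of variation was 28.8% in Yorkshire and 33.9% in Wei, and the log2 fold change was 0.055 with a 95% interval from -0.61 to 0.72 (edgeR adjusted p = 0.929). Unlike SOD2, PRDX3 did not separate the breeds when set against the mitochondrial content markers. It stood at 8.90%, 9.77% and 6.59% of their sum in Yorkshire and at 4.39%, 9.53% and 6.93% in Wei (two-sided exact permutation test p = 0.6).

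PRDX5, a peroxiredoxin found in mitochondria, peroxisomes and cytosol (chromosome 2, 6864027 to 6867851), had 12.5, 18.0 and 13.5 CPM in Yorkshire and 13.0, 11.6 and 15.3 CPM in Wei. Yorkshire replicate 2 was the highest library. The log2 fold change was -0.14 with a 95% interval from -0.57 to 0.28 (edgeR adjusted p = 0.689), and it was 0.029 without Yorkshire replicate 2.

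**Figure D3:**
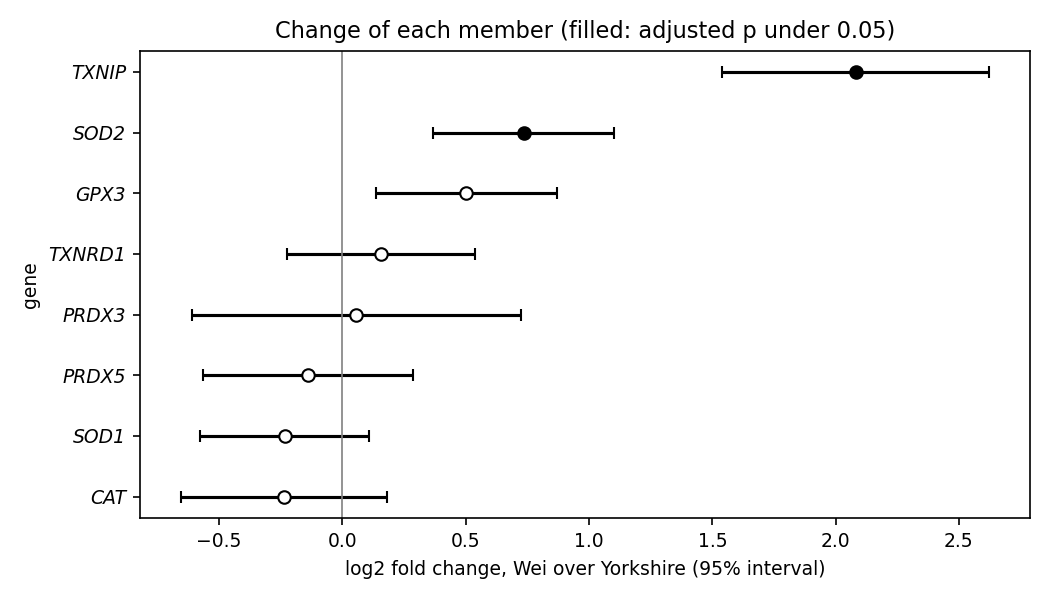
Log2 fold change, Wei over Yorkshire, of the 8 members with its 95% interval from edgeR's quasi-likelihood fit; filled points have an adjusted p under 0.05. TXNIP (2.08) and SOD2 (0.73) are filled, the interval of GPX3 lies above 0 without passing the adjusted threshold, and the other 5 intervals cross 0.

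TXNIP belongs to the alpha-arrestins, and its transcription is known to follow glucose through MondoA (MLXIP) and its partner MLX. In a list of 8 such genes, 6 were found and tested. Of these 1 was higher and 1 lower in Wei, beside 2.73% and 2.35% of all tested genes. The median log2 fold change of the 6 was 0.25. ARRDC2, an alpha-arrestin, had 11.3, 39.8 and 43.4 CPM in Yorkshire and 147, 163 and 132 CPM in Wei. Its log2 fold change was 2.23 ± 0.43 (SE; edgeR adjusted p = 0.0315), close to that of TXNIP, and the call was lost without any 1 library other than Yorkshire replicate 1, with adjusted p up to 0.0973. MLX had 69.7, 70.5 and 63.6 CPM in Yorkshire and 38.7, 46.9 and 37.4 CPM in Wei, a log2 fold change of -0.73 ± 0.13 (edgeR adjusted p = 0.0268), lost without any 1 library other than Wei replicate 2, with adjusted p up to 0.104. MLXIP had a log2 fold change of 0.41 ± 0.22 (edgeR adjusted p = 0.293), and MLXIPL, which encodes the related sensor ChREBP, one of 0.082 ± 0.352.

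The other arrestin relatives tested were not called. ARRDC4, which is also known as a MondoA target, had 31.2, 9.29 and 13.1 CPM in Yorkshire and 12.1, 12.4 and 13.8 CPM in Wei, with Yorkshire replicate 1 apart from the other 5 libraries. ARRDC3 had 38.6, 41.1 and 107 CPM in Yorkshire and 74.2, 233 and 42.3 CPM in Wei, where the breeds overlapped. Their log2 fold changes were -0.49 ± 0.39 and 0.90 ± 0.62 (edgeR adjusted p = 0.488 and 0.416).

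Over 12 lists of related redox genes, 106 genes in all, 93 had a row and 87 were tested. Of these 8 were higher and 1 lower in Wei, or 10.3% called beside 5.08% over all tested genes, and the median log2 fold change was 0.057. The lists were chosen with earlier results of these data known, so these shares are a description only. DESeq2, which called 9.78% of all genes, called 11 related redox genes higher and 1 lower. With limma voom, which called 4.88% of all genes, 8 were higher and 1 lower. The count fell when a library was left out, to 4 (Yorkshire replicate 1), 0 (Yorkshire replicate 2), 2 (Yorkshire replicate 3), 4 (Wei replicate 1) or 6 (Wei replicate 2 or Wei replicate 3). Over all tested genes the count fell too, from 671 to 276, 60 and 165 without Yorkshire replicates 1 to 3. Without Wei replicates 1 to 3 it was 216, 394 and 240. Without Yorkshire replicate 2, 19 of 88 related redox genes had an unadjusted p under 0.05, beside 2453 of 13695 over all genes.

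The list of NRF2 and its targets, which also holds relatives and regulators of NRF2, held most of these calls. In it 5 of 10 tested genes were higher, beside 2.73% of all tested genes, and none lower. As the list was chosen with earlier results of these data known, this too is a description only. The median log2 fold change was 0.66. KEAP1, MAFK, NQO1, HMOX1 and AKR1A1 were not called. NFE2L2, which encodes NRF2, the activator of antioxidant genes, had 78.9, 72.4 and 77.9 CPM in Yorkshire and 161, 137 and 139 CPM in Wei. Its log2 fold change was 0.93 ± 0.12 (SE; edgeR adjusted p = 0.0108). NFE2L1, a related activator of proteasome genes, had one of 1.05 ± 0.17 (adjusted p = 0.0197), and BACH1, a repressor that competes with NRF2 at the same sites, one of 0.79 ± 0.16 (adjusted p = 0.0352). SQSTM1, an autophagy receptor that sequesters KEAP1, had 326, 308 and 249 CPM in Yorkshire and 1097, 747 and 675 CPM in Wei, a log2 fold change of 1.51 ± 0.21 (edgeR adjusted p = 0.0119). HMOX2, the constitutive heme oxygenase, stood near 24.5 CPM in all Yorkshire libraries (24.2 to 24.7) and between 40.4 and 66.0 CPM in Wei. These 5, named because they were called, had every Wei library above every Yorkshire library, as had 14.3% of all tested genes. NFE2L2 and SQSTM1 were called without each library except Yorkshire replicate 2 (adjusted p = 0.059 and 0.0619), NFE2L1 and HMOX2 kept the call without any 1 Wei library and lost it without any 1 Yorkshire library (adjusted p up to 0.0785 and 0.0836), and of the 6 fits with a library left out BACH1 was called in the one without Wei replicate 3 (adjusted p up to 0.122 in the others). BACH1 also lost the call with library size alone as the scaling (adjusted p = 0.0738).

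The following enzymes, whose transcription NRF2 is known to activate, were chosen from several lists after their values were seen. NQO1, a quinone reductase, had a log2 fold change of 0.52 ± 0.28 (edgeR adjusted p = 0.301), and HMOX1, the inducible heme oxygenase, one of -0.21 ± 0.43 (adjusted p = 0.807) at 0.664 to 2.26 CPM. GCLC and GCLM, subunits of the enzyme that starts glutathione synthesis, had 0.30 ± 0.17 and 0.044 ± 0.268 (adjusted p = 0.335 and 0.941), and TXNRD1, described above, is another such target. SRXN1, also known as such a target, encodes the sulfiredoxin that repairs overoxidised peroxiredoxins. It had 1.41, 0.774 and 0.947 CPM in Yorkshire and 6.27, 2.34 and 2.94 CPM in Wei, from 36, 14 and 26 counts and 106, 36 and 60 counts. Its log2 fold change was 1.87 ± 0.43 (edgeR adjusted p = 0.046), with Wei replicate 1 well above the others, and the call was lost without any 1 library other than Wei replicate 2 (adjusted p up to 0.151) and with limma voom (adjusted p = 0.0627).

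SRXN1 was the 1 call among 8 other peroxidase genes, beside 5.08% of all tested genes called. PRDX1, PRDX4 and PRDX6 had log2 fold changes of -0.35, -0.44 and -0.22, and PRDX2 one of 0.13 (edgeR adjusted p = 0.19, 0.217, 0.359 and 0.531). GPX8 and GPX7, peroxidases of the endoplasmic reticulum, had -0.41 and -1.07 (adjusted p = 0.147 and 0.108). For PRDX1, GPX8 and GPX7 all Wei libraries were below the Yorkshire ones, as for 15.3% of all tested genes. In this list 4 of 8 genes, these and SRXN1, had an unadjusted p under 0.05, beside 23.3% of all tested genes. Of 9 listed fibroblast markers 8 were tested. Of these edgeR called 1 lower (DPT, a matrix protein), beside 2.35% of all tested genes. DESeq2, which called 9.78% of all genes, called 4 lower. All 8 log2 fold changes were negative, from -1.72 (COL3A1) to -0.12 (MFAP5), and the summed level of the list was 2036 to 3367 CPM in Yorkshire and 557 to 1563 CPM in Wei. In bulk muscle fewer cells of a type and less RNA per cell cannot be told apart, and the part of fibroblasts in these values was not tested.

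In the remaining lists calls were few, beside 5.08% of all tested genes called by edgeR. Among 7 tested glutathione transferases GSTZ1, an enzyme of tyrosine breakdown, was higher, with 21.4, 19.8 and 17.2 CPM in Yorkshire and 33.9, 27.5 and 29.0 CPM in Wei (log2 fold change 0.63 ± 0.15, edgeR adjusted p = 0.0468), and it missed the threshold without any 1 library, with adjusted p up to 0.142, and with library size alone (adjusted p = 0.0945). Of 7 NADPH-supplying genes 0 were called by edgeR or limma voom and 2, both higher, by DESeq2, which called 9.78% of all genes. At an edgeR unadjusted p under 0.05 there were 3, beside 23.3% of all tested genes. These 3 encode mitochondrial enzymes and were chosen after their values were seen: IDH2 (0.50 ± 0.13), ME3 (0.81 ± 0.22) and NNT (0.46 ± 0.14), with edgeR adjusted p of 0.0675, 0.0724 and 0.101. All 3 had every Wei library above every Yorkshire library, as had 14.3% of all tested genes.

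Selenoproteins and their machinery showed no call among 15 tested genes with edgeR, DESeq2 or limma voom, and 1 had an unadjusted p under 0.05. SELENOW, the abundant muscle selenoprotein, had a log2 fold change of -0.18 ± 0.18 and SELENOP, the selenium carrier, one of 0.21 ± 0.21. Thioredoxins and glutaredoxins had 0 of 8 called by any of the 3 tools and 1 at an unadjusted p under 0.05, TXNRD2, the mitochondrial thioredoxin reductase (0.47 ± 0.20, edgeR adjusted p = 0.198). Glutathione synthesis and reduction had 0 of 7 by any tool and 0 at an unadjusted p under 0.05. Sestrins and methionine sulfoxide reductases had 0 of 6 called by any tool, and 5 at an unadjusted p under 0.05, beside 23.3% of all tested genes. These 5 went both ways: SESN1 had a log2 fold change of 0.62, and SESN2, SESN3, MSRA and MSRB3 had -0.66, -1.24, -1.17 and -0.36. SOD3, the extracellular dismutase, and CCS, the copper chaperone of SOD1, had -0.41 ± 0.37 and -0.15 ± 0.17.

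Among 6 tested genes of superoxide and peroxide sources edgeR called 0, with 1 at an unadjusted p under 0.05, and DESeq2 and limma voom called 1 each, higher. MAOB, a mitochondrial amine oxidase that releases peroxide, had a log2 fold change of 1.60 ± 0.42 (edgeR adjusted p = 0.0655). CYBB, the phagocyte oxidase, stood at 10.5 CPM in Yorkshire replicate 3, the library with the highest macrophage markers, and between 2.99 and 4.20 CPM in the others. Among FOXO and PGC-1 regulators 0 of 5 were called by any of the 3 tools and 1 had an unadjusted p under 0.05. This was FOXO4, with a log2 fold change of 0.32 ± 0.14 (edgeR adjusted p = 0.202). FOXO1 and PPARGC1B had -0.20 ± 0.41 and -0.11 ± 0.23. FOXO3, a known activator of SOD2 and CAT, had 0.51 ± 0.29, and PPARGC1A, the coactivator of mitochondrial genes, 0.75 ± 0.33 (edgeR adjusted p = 0.334 and 0.22).

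**Figure D4:**
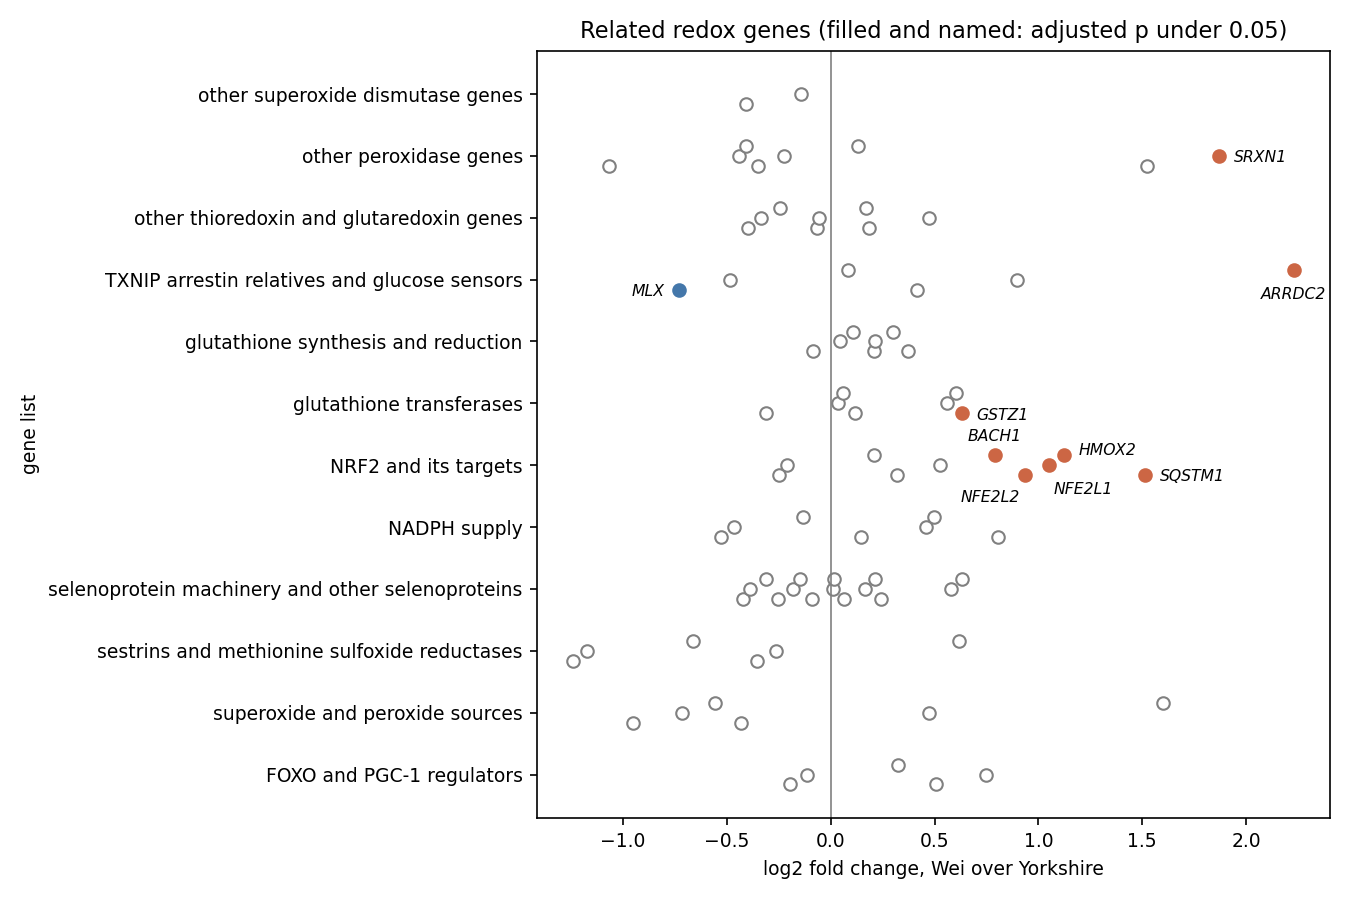
Log2 fold change, Wei over Yorkshire, of 87 tested genes in 12 lists of related redox genes; each point is a gene, spread vertically only for legibility, and filled, named points have an edgeR adjusted p under 0.05. The 8 genes higher in Wei include 5 of the NRF2 list, and MLX is the 1 gene lower.

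The genes most like TXNIP in pattern were sought among 7801 others with a symbol, by the Pearson correlation of log2 CPM over the 6 libraries, which share the breed difference. The highest were RAD50 (r = 0.994), CTDSPL (0.991), TRIM66 (0.990), COA7 (0.989) and CEP85 (0.988). They are a description of 6 libraries only. Their log2 fold changes were 0.44, 1.02, 0.56, 0.56 and 1.27, all smaller than that of TXNIP, and of these CTDSPL and CEP85 passed edgeR's adjusted threshold (adjusted p = 0.00956 and 0.005).

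**Figure D5:**
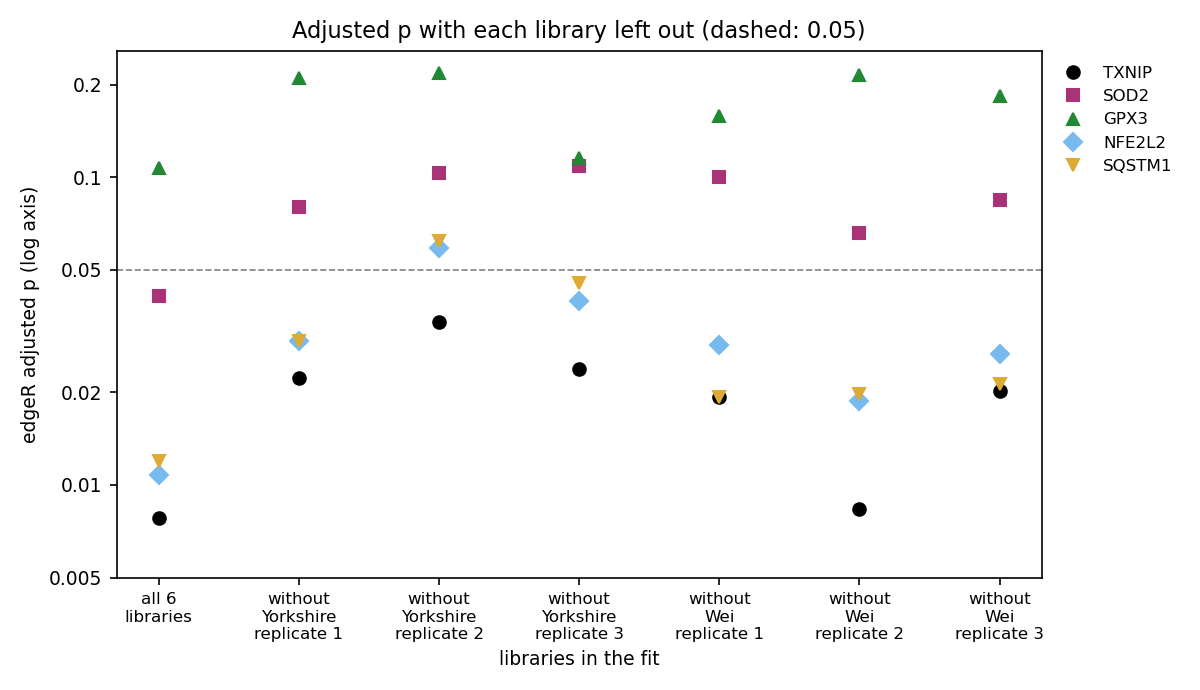
Adjusted p of edgeR's quasi-likelihood test (log axis) for TXNIP, SOD2, GPX3, NFE2L2 and SQSTM1 with all 6 libraries and with each library left out in turn; the dashed line marks 0.05. TXNIP stays under the line in all 7 fits, at 0.00783 to 0.0339, SOD2 is under it only with all libraries, and GPX3 is above it in every fit.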

How the data were processed

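Per the file headers, the authors deposited read counts and FPKM values for every gene in each of the 6 libraries. Tools named in the submitters' processing notes are CASAVA 1.7, TopHat2 2.0.9 and edgeR, and the build named there is Sscrofa10.2. How reads were counted, with which annotation and whether by strand is not given in the sources used here, so reads of near-identical copies cannot be told apart. No other row of the table overlapped the members' coordinates. Deposited FPKM values equalled counts over a gene factor and a library factor, and FPKM served only to compare levels between genes.

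The deposited counts were tested in R 4.3.3 with edgeR 4.0.16. Genes were kept by filterByExpr at a minimum count of 10, TMM gave the scaling, and a quasi-likelihood model with breed as its one term (glmQLFit, glmQLFTest) gave p-values. These were adjusted by Benjamini-Hochberg over every tested gene, and genes under 0.05 were called. Standard errors were derived from each gene's F statistic and log2 fold change, and 95% intervals from the test's degrees of freedom. Ratios were tested by exact permutation of libraries. DESeq2 1.42.0 and limma 3.58.1 (voom) were alternatives, with other scalings and filters, the replicate block and each library left out.

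Other genes were taken from lists by the symbol of the table or, by ID, of a gene name table, which named 1774 of 9160 rows without a symbol. The rule for named genes took all members, up to 4 called genes of each list or else up to 2 of the highest level, and the 5 genes most correlated with TXNIP. Other genes named were chosen after their values were seen. The members and lists were chosen with earlier results of these data known. All pairs of libraries differed by more than sampling noise (lowest chi-square over its degrees of freedom 26.4). Figures were drawn with matplotlib 3.10.9.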

Additional observations from a re-analysis of the deposited data

How the results depend on the processing

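TXNIP passed in 6 of 6 fits without a library and in 8 of 8 other alternatives, with a log2 fold change between 1.89 and 2.24. SOD2 kept its direction in these and passed in 0 of 6 and 6 of 8, missing with the replicate block (adjusted p = 0.0546). BACH1 and GSTZ1 also missed with the replicate block (adjusted p = 0.0634 and 0.0602). The members called were 1, TXNIP, with library size alone, with the replicate block, at an adjusted p under 0.01 and without any 1 library. Over all genes 671 were called, 477 with the replicate block, 1291 with DESeq2 (the cause was not tested), 52 at an adjusted p under 0.01 and 60 to 394 without 1 library, where fewer samples enter. Related redox genes called, an alternative added after the data were seen, were 7 with the replicate block, 0 at an adjusted p under 0.01 (24 at an unadjusted p under 0.05) and 0 to 6 without 1 library. Sign changes occurred only on leaving out a library, in genes not called: the log2 fold change ranged from -0.18 to 0.30 for PRDX3, from -0.25 to 0.029 for PRDX5, from -0.037 to 0.28 for TXNRD1 and from -0.12 to 0.094 for GPX4. For PRDX3 it was -0.16 on leaving out Yorkshire replicate 3 and -0.18 on leaving out Wei replicate 2, and for GPX4 0.012 and 0.0091 without Wei replicates 1 and 3. Across genes, the correlation between Wei and Yorkshire deviations was 0.14, -0.0066 and 0.022 for replicate numbers 1 to 3, and the numbers were not taken as pairs. With 3 libraries a breed, intervals of members that were not called still allow differences up to the bounds given.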
